A study of Mus musculus with 7 samples.

Results

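Mvk, Ebp, Srebf2 and Srebf1 are the sterol synthesis genes and regulators described here, 4 of the 1592 genes that could be named in a set of astrocyte arrays. Mvk and Ebp encode enzymes of the route to cholesterol, and Srebf2 and Srebf1 encode the transcription factors SREBP-2 and SREBP-1. They were chosen by gene symbol, case ignored, from the probe sets that the authors list in a table of fold changes. The authors' deposited table does not name the groups it compares. Its folds, of which none is below 1.4 in size, had the sign of the standard-label minus cholesterol-diet difference among CETP mice for 100% of its 1778 probe sets. They equalled that difference within 0.01 on the log2 scale for 99.9% of probe sets when each group was averaged by Tukey's biweight, a mean that gives outlying arrays less weight, and for 18.3% with plain means. In comparisons with wild type, in either direction, at most 2.19% did. The difference between those diet labels was therefore taken as part of how the 4 genes were chosen and is given as a description with no test. Each gene had 1 probe set.

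Each array held RNA of astrocytes isolated magnetically from the whole brain of 1 mouse, the labels giving every animal a number of its own. In the first group (n = 3, replicates 1, 2 and 3) CETP transgenic mice ate food containing 1% cholesterol. These animals, of the strain B6.CBA-Tg(CETP)5203Tall/J, received that diet for 2 months, from 2 to 4 months of age. CETP transgenic mice labelled as standard diet formed the second group (n = 2, replicates 4 and 5), and wild-type mice on the standard diet the third (n = 2, replicates 2 and 3). The protocol text assigns the cholesterol diet to transgenic animals in general, so for replicates 4 and 5 the standard diet rests on their own labels. The transgene encodes human cholesteryl ester transfer protein, which exchanges lipids between plasma lipoproteins and which mice lack. The series' design text states that this transgene's expression is induced by dietary cholesterol. Neither the promoter of the transgene nor the background and age of the wild-type mice is given in the sources used here.

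Cholesterol cannot cross the blood-brain barrier in quantity, so the brain makes its own, and in the adult much of it comes from astrocytes. Mevalonate kinase, the product of Mvk, adds a phosphate to mevalonate early in the pathway. The sterol isomerase EBP moves a double bond within the sterol ring late in it, in the membrane of the endoplasmic reticulum. SREBP-2 mainly turns on genes of cholesterol synthesis and uptake, and SREBP-1 mainly those of fatty acid synthesis. Both are made as membrane-bound precursors. When sterols are low the precursor is carried to the Golgi and cut, and the freed fragment enters the nucleus and binds sterol regulatory elements (SREs), often beside sites for the factors NF-Y and Sp1. This step of control acts on the protein, which an mRNA level does not measure.

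The 4 genes lie on separate chromosomes in RefSeq's annotation of GRCm38.p6. Mvk spans 114444264 to 114460591 of chromosome 5, Ebp 8185329 to 8193512 of chromosome X, Srebf2 82147269 to 82205379 of chromosome 15 and Srebf1 60199084 to 60224186 of chromosome 11. The promoters are shown because SREBP is known to act on genes of its own pathway, and on its own genes, through them. Each is the 250 bases before a RefSeq transcription start, read 5′ to 3′ along the gene's strand. Capitals mark matches on either strand to the SRE-1 core ATCACCCCA, the NF-Y box CCAAT and the Sp1 box GGGCGG, and a match on the other strand shows the reverse complement of those letters. The coordinates are chr5:114444019-114444268 (+) for Mvk, chrX:8193513-8193762 (-) for Ebp, chr15:82147019-82147268 (+) for Srebf2 and chr11:60210472-60210721 (-) for Srebf1.
Mvk: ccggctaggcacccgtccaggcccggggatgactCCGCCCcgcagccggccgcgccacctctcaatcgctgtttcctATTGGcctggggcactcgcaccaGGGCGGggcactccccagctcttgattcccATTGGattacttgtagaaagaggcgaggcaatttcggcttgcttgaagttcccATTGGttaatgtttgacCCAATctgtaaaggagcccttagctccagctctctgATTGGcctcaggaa
Ebp: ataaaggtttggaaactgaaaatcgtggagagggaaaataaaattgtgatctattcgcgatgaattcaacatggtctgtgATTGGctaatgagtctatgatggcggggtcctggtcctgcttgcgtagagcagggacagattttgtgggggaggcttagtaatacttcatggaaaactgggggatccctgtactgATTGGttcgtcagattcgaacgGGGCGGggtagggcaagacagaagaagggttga
Srebf2: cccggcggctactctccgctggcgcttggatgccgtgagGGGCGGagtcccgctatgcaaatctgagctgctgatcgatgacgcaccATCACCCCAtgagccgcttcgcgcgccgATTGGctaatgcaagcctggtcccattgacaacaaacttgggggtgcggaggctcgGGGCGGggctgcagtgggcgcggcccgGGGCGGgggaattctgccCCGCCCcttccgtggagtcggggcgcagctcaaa
Srebf1: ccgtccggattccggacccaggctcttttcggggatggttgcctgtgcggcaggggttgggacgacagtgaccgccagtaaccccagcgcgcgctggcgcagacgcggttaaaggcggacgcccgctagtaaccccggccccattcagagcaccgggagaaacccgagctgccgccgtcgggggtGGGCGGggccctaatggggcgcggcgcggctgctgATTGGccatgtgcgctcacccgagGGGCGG

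The SRE-1 core was present in the Srebf2 promoter, 163 to 155 bases before the start, and among 32851 mouse promoters of this length 0.24% held it. It was added to the search after the promoters had been seen, so nothing is read from that share. The SRE consensus TCACNCCAC, a partly overlapping form of the same element, was in none of the 4 promoters printed and in 1.05% of all. The Srebf2 match is followed by a t, where that consensus has its final C. The E-box CACGTG was likewise in none of them and in 6.02% of all. Mvk had 5 NF-Y boxes, Ebp 2, and Srebf2 and Srebf1 1 each, where 33.8% of promoters had at least 1. Sp1 boxes numbered 2 in Mvk, 1 in Ebp, 4 in Srebf2 and 2 in Srebf1, against a share of 32.7% of promoters with any. Of the 3 Srebf1 start sites searched, all inside the gene's span given above, the one shown was picked for holding both kinds of box. Its counts are therefore not set against these shares. Of the other Srebf1 windows, one had 0 NF-Y and 2 Sp1 boxes and the other 1 NF-Y and 0 Sp1 boxes. The Mvk start lies 242 bases from that of Mmab, a vitamin B12 metabolism gene transcribed the other way from the same stretch. These matches describe letters in a window and are not evidence of binding.

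Srebf2 also carries a microRNA within its span, shown because it leaves the same transcript and is known to repress cholesterol export genes. It is miR-33, at chr15:82198127-82198147 (+), with the seed (bases 2 to 8) in capitals. Its level was not analysed here.
mmu-miR-33-5p: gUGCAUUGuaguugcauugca

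Levels are the authors' log2 values, on which a step of 1 is a doubling. The median of the negative control probes, between 7.48 and 7.69 on the 7 arrays, serves as the level of background. Medians over all features lay between 7.51 and 7.59, at the level of background, so they do not measure how bright features compare between arrays. The medians of the positive controls ranged from 10.81 to 11.21. A probe set's level was not compared with that of another, since probes differ in brightness. In such bulk RNA fewer cells of a type and less RNA per cell cannot be told apart.

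Mvk, whose signal lay close to background, had its highest values on the cholesterol diet. It measured 8.15, 7.84 and 8.13 in CETP cholesterol-diet replicates 1, 2 and 3, 7.51 and 7.75 in CETP standard-label replicates 4 and 5, and 7.64 and 7.40 in wild-type replicates 2 and 3. On the deposited values all 3 cholesterol-diet arrays lay above the other 4, while the standard-label and wild-type arrays overlapped. Group means were 8.04 ± 0.17 (SD, n = 3) on the cholesterol diet, 7.63 ± 0.17 (SD, n = 2) on the standard label and 7.52 ± 0.17 (SD, n = 2) in wild type. On standard-label replicate 4 and wild-type replicate 3 the value was below that array's negative control median, and the cholesterol-diet arrays exceeded theirs by 0.62, 0.18 and 0.58. Standard-label replicate 5 exceeded its own by 0.20 and wild-type replicate 2 by 0.16. Measured from background, cholesterol-diet replicate 2 thus fell below standard-label replicate 5. A signal this close to background makes the size of a difference uncertain.

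Ebp ran the other way, with its lowest values on the cholesterol diet. It measured 9.19, 10.00 and 8.67 in cholesterol-diet replicates 1, 2 and 3, 9.75 and 9.85 in standard-label replicates 4 and 5, and 10.09 and 9.88 in wild-type replicates 2 and 3. Cholesterol-diet replicates 1 and 3 were the lowest of the 7 arrays, whereas replicate 2 exceeded both standard-label arrays and wild-type replicate 3. Means were 9.29 ± 0.67 (SD, n = 3) on the cholesterol diet, 9.80 ± 0.07 (SD, n = 2) on the standard label and 9.98 ± 0.15 (SD, n = 2) in wild type. On the deposited values the standard-label arrays lay just below the wild-type arrays without overlap. Measured from background, standard-label replicate 5 (2.30) exceeded wild-type replicate 3 (2.19). Every Ebp value was at least 1.12 above its array's negative control median.

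Srebf2 was 7.18 or more above the negative control median on every array. It measured 15.88, 15.28 and 15.84 in cholesterol-diet replicates 1, 2 and 3, 15.23 and 14.73 in standard-label replicates 4 and 5, and 15.38 and 14.99 in wild-type replicates 2 and 3. Cholesterol-diet replicates 1 and 3 stood highest, replicate 2 lay between the wild-type arrays, and standard-label replicate 5 was lowest. Means were 15.67 ± 0.33 (SD, n = 3), 14.98 ± 0.36 (SD, n = 2) and 15.19 ± 0.28 (SD, n = 2) for the cholesterol diet, the standard label and wild type. On the deposited values the cholesterol-diet arrays did not overlap the standard-label arrays, but both groups overlapped wild type. Measured from background, cholesterol-diet replicate 2 (7.62) fell just below standard-label replicate 4 (7.63).

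Srebf1 followed the same order of groups with wider spread in CETP mice. It measured 12.52, 12.09 and 12.98 in cholesterol-diet replicates 1, 2 and 3, 12.19 and 11.33 in standard-label replicates 4 and 5, and 12.14 and 12.12 in wild-type replicates 2 and 3. Replicates 1 and 3 of the cholesterol diet were again the highest, and standard-label replicate 5 again the lowest. Replicate 2 of the cholesterol diet lay just below the wild-type arrays and replicate 4 of the standard label just above them. Means were 12.53 ± 0.45 (SD, n = 3) on the cholesterol diet, 11.76 ± 0.61 (SD, n = 2) on the standard label and 12.13 ± 0.01 (SD, n = 2) in wild type, and no pair of groups was free of overlap.

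**Figure D1:**
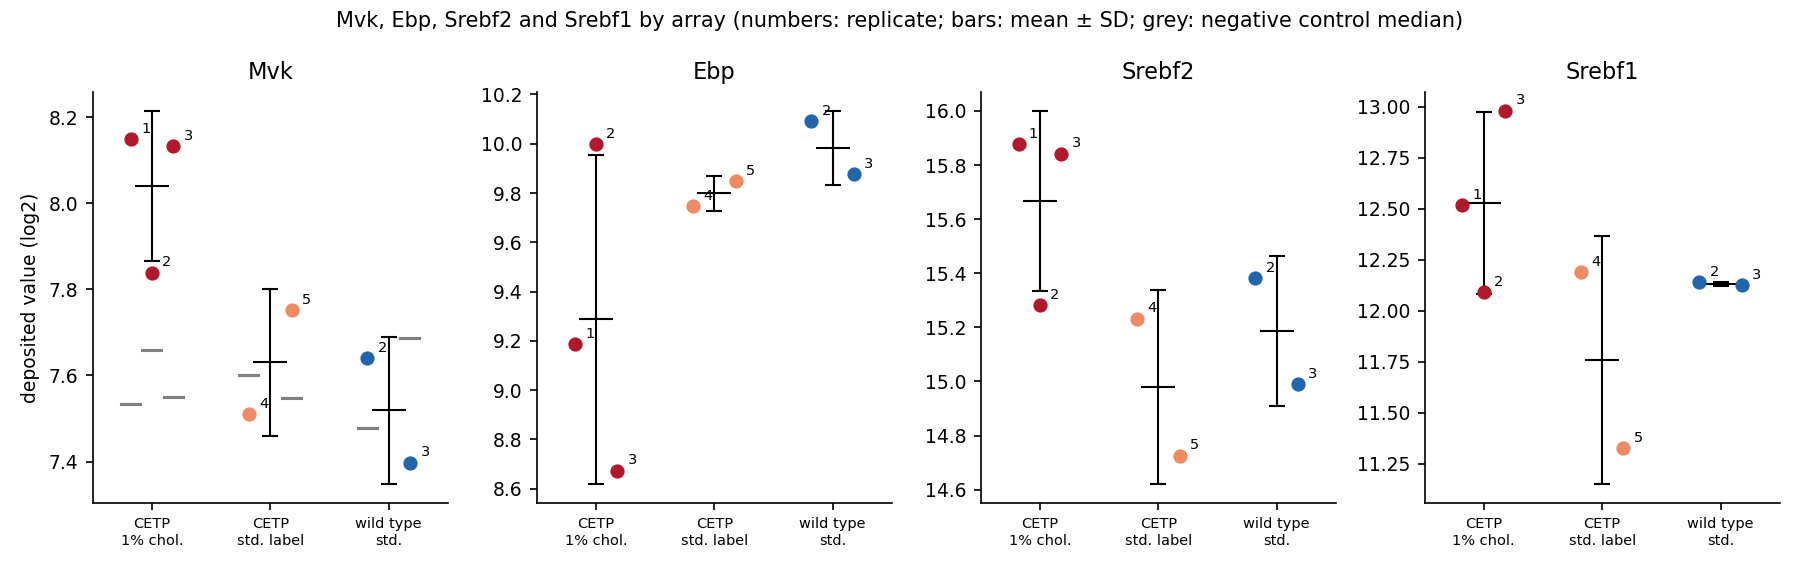
Deposited log2 values (y axis, a separate range for each gene) of Mvk, Ebp, Srebf2 and Srebf1 on the 7 arrays, by group (x axis), with replicate numbers beside the points, black bars for mean ± SD and grey dashes in the Mvk panel for each array's negative control median. Cholesterol-diet replicates 1 and 3 are the highest arrays for Mvk (8.15 and 8.13), Srebf2 and Srebf1 and the lowest for Ebp, while replicate 2 lies nearer the other groups.

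The series title contrasts CETP transgenic with wild-type animals, and this comparison can be tested for genes chosen on diet. With the 5 CETP arrays weighted equally, the estimate is uncorrelated with the difference between the CETP diet groups, provided that arrays vary alike. None of the 4 genes passed the test. Mvk averaged 7.88 ± 0.27 (SD, n = 5) in CETP mice and 7.52 ± 0.17 (SD, n = 2) in wild type, a log2 difference of 0.36 ± 0.19 (SE) with a 95% interval of -0.07 to 0.79 (limma adjusted p = 0.651). For Ebp the averages were 9.49 ± 0.55 (SD, n = 5) in CETP mice and 9.98 ± 0.15 (SD, n = 2) in wild type, a log2 difference of -0.49 ± 0.31 (SE, interval -1.19 to 0.21, limma adjusted p = 0.692). The intervals of both genes lie mostly on one side of 0 and include it.

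The regulators had smaller differences from wild type. Srebf2 averaged 15.39 ± 0.48 (SD, n = 5) in CETP mice and 15.19 ± 0.28 (SD, n = 2) in wild type, a log2 difference of 0.21 ± 0.24 (SE, interval -0.34 to 0.76, limma adjusted p = 0.834). Srebf1 averaged 12.22 ± 0.61 (SD, n = 5) in CETP mice and 12.13 ± 0.01 (SD, n = 2) in wild type, a log2 difference of 0.09 ± 0.29 (SE, interval -0.57 to 0.74, limma adjusted p = 0.955). Its direction turned without cholesterol-diet replicate 3, to -0.10. A doubling of either factor gene in CETP mice would lie outside these intervals, and smaller differences in both directions lie inside. Over all 22195 features limma called 0 at an adjusted p of 0.05 in this comparison (0% called, smallest adjusted p = 0.461). At an unadjusted p under 0.05 it called 0 of the 4 genes, beside 8.31% of all features. The mean was higher in CETP mice for 3 of the 4 genes, beside 42.7% of all features. In 0 of the 4 did the CETP arrays and wild-type arrays avoid overlap, where 13.6% of features did.

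The comparison that the design text names sets cholesterol-fed CETP mice against wild type on the standard diet. Genotype and diet differ together in it, and its cholesterol-diet arrays took part in the choice of the genes, so no p is given. The enzymes differed in opposite directions, by 0.52 ± 0.21 (SE) for Mvk and -0.70 ± 0.34 for Ebp on the log2 scale, the size for Mvk being uncertain so near to background. Srebf2 stood 0.48 ± 0.27 and Srebf1 0.40 ± 0.32 above wild type. Without cholesterol-diet replicate 2 the difference of Ebp was -1.05, that of Srebf1 0.62 and that of Srebf2 0.67. Without cholesterol-diet replicate 3 it was -0.39 for Ebp and 0.17 for Srebf1, and without wild-type replicate 3 it was 0.28 for Srebf2. With the level of the hybridization spike-in controls, described further on, as a covariate the differences were 0.18 for Mvk, 0.23 for Ebp, 0.12 for Srebf2 and -0.07 for Srebf1, so those of Ebp and Srebf1 turned. Mvk alone had no overlap between the groups, 1 of 4 genes, beside 25.1% of all features.

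The arrays of CETP mice labelled as standard diet also took part in the choice, so their comparison with wild type is given without a p. Log2 differences were 0.11 ± 0.23 (SE) for Mvk, -0.19 ± 0.37 for Ebp, -0.21 ± 0.29 for Srebf2 and -0.37 ± 0.35 for Srebf1. The values of the regulators depended on which of the 2 standard-label arrays was kept. Without replicate 5 Srebf2 stood at 0.05 and Srebf1 at 0.06, and without replicate 4 at -0.46 and -0.80. Ebp stood at -0.08 without wild-type replicate 2. Mvk stood at -0.01 without replicate 5 or without wild-type replicate 3. With the spike-in covariate the differences were -0.03 for Mvk, 0.19 for Ebp, -0.35 for Srebf2 and -0.56 for Srebf1. Those of Mvk and Ebp thus turned. On the deposited values Ebp alone had no overlap, 1 of 4 genes, beside 31.4% of all features. This comparison and the preceding one share their wild-type arrays.

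Between the CETP diet groups, which fixed the choice, the cholesterol diet stood above the standard label by 0.69 ± 0.27 (SE) for Srebf2, 0.77 ± 0.32 for Srebf1 and 0.41 ± 0.21 for Mvk, and below it by a log2 difference of -0.51 ± 0.34 for Ebp. Without standard-label replicate 5 the difference was 0.44 for Srebf2 and 0.34 for Srebf1. Without replicate 4 these were 0.94 and 1.20. The difference of Ebp was -0.21 without cholesterol-diet replicate 3 and -0.87 without cholesterol-diet replicate 2. With the spike-in covariate the differences were 0.21 for Mvk, 0.04 for Ebp, 0.47 for Srebf2 and 0.49 for Srebf1, so that of Ebp turned. On the deposited values Mvk and Srebf2 had no overlap, 2 of 4 genes, beside 18.5% of all features. Nothing is read from this because the choice used these arrays.

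**Figure D2:**
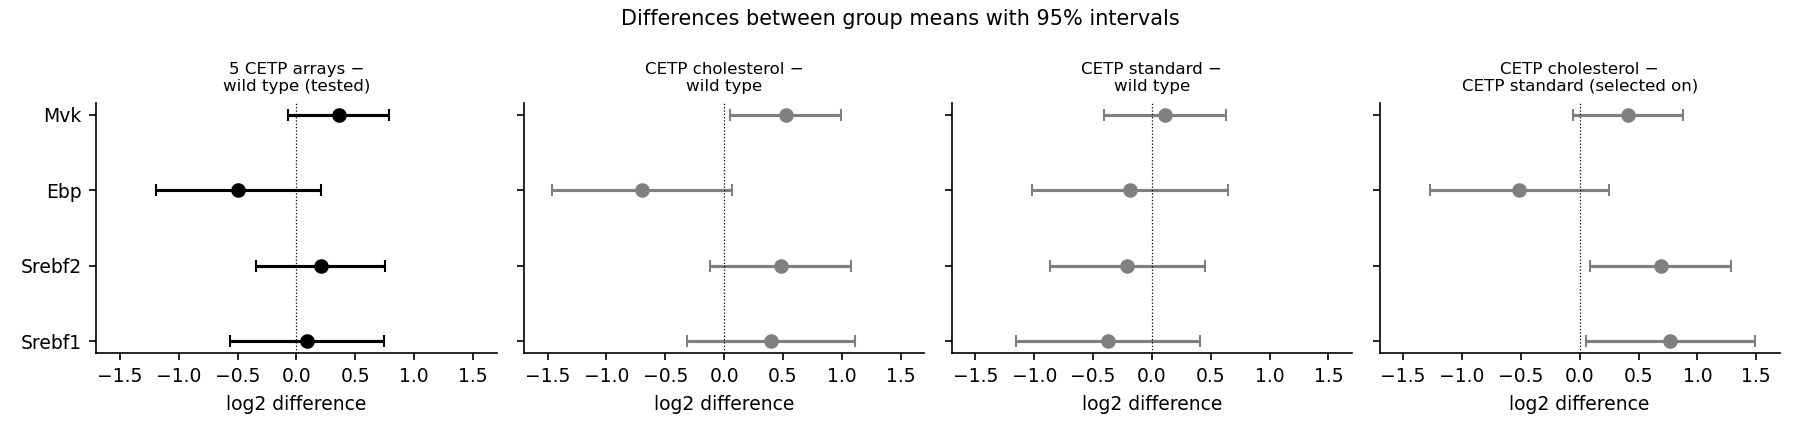
Log2 differences between group means (x axis) for the 4 genes (rows) in 4 comparisons, with 95% intervals from limma. In the tested comparison of 5 CETP arrays with wild type (black) all intervals include 0, from 0.36 for Mvk to -0.49 for Ebp, and the grey panels share arrays with the choice of the genes.

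Across the 7 arrays the 4 genes shared the pair of arrays at one end, and their orders otherwise differed. Cholesterol-diet replicates 1 and 3 were the top pair of arrays for Mvk, Srebf2 and Srebf1 and the bottom pair for Ebp. Among all features 16.3% had this pair at either end, 7.3% at the top and 9.05% at the bottom. The pair was noticed in these genes and the choice of the genes used these arrays, so nothing is read from these shares. Cholesterol-diet replicate 2, with the same labels, deviated from each gene's own mean by 0.06, -0.05 and -0.11 for Mvk, Srebf2 and Srebf1 and by 0.37 for Ebp. For Ebp the cholesterol-diet group thus held both the lowest array and the second highest, with a range of 1.32.

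The hybridization spike-in controls and the astrocyte markers had the same pair of arrays at the top. The 4 hybridization spike-in controls, RNAs added to every sample before the array, averaged 11.41, 11.21 and 11.77 on cholesterol-diet replicates 1, 2 and 3, 11.02 and 11.22 on standard-label replicates 4 and 5, and 11.00 and 10.80 on wild-type replicates 2 and 3. The median of the positive controls, in contrast, was highest on wild-type replicate 2 (11.21). The labelling spike-in controls, 5.36 to 5.74, lay below the negative control median on every array, so nothing is read from their order. The hybridization spike-in level was then used as a covariate for the differences between all CETP arrays and wild type. They were 0.10 ± 0.28 (SE) for Mvk, 0.22 ± 0.37 for Ebp, -0.07 ± 0.37 for Srebf2 and -0.27 ± 0.44 for Srebf1. Thus 3 of 4 directions turned, and each difference was smaller in size than its SE. The spike-in level itself was higher on every CETP array than on both wild-type arrays, and its part in the results cannot be told apart from that of the groups.

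Of 12 astrocyte markers listed, 2 were named here, the glutamate transporter gene Slc1a3, whose protein GLAST the labels use to describe the purified cells, and the transcription factor gene Sox9. Slc1a3 measured 13.61, 12.67 and 13.68 in cholesterol-diet replicates 1, 2 and 3, 12.62 and 12.20 in standard-label replicates 4 and 5, and 12.59 and 11.59 in wild-type replicates 2 and 3. Sox9 measured 15.29, 14.43 and 15.31 on the cholesterol diet, 14.68 and 14.70 on the standard label, and 14.71 and 14.44 in wild type. Cholesterol-diet replicates 1 and 3 were the highest arrays for both markers, as for Mvk and the SREBP genes. Both were far above background on all arrays, and the other 10 astrocyte markers were not analysed here.

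The markers of other brain cells differed among themselves in which arrays were highest. The mean log2 level of 11 of 15 microglial markers was 7.96 to 8.74 on the cholesterol diet, 11.34 and 8.12 in standard-label replicates 4 and 5, and 7.50 to 7.89 in wild type, and 37 of 77 values did not exceed background. Replicate 4, with the highest microglial level, ranked 6 from the top for Mvk, 5 for Ebp, 5 for Srebf2 and 3 for Srebf1 among the 7 arrays. Oligodendrocytes, which make cholesterol for myelin, were represented by 2 of 12 markers (Ugt8a and Fa2h), with means of 11.86 to 12.86 on the cholesterol diet, 12.28 and 12.79 on the standard label, and 12.39 and 12.80 in wild type. Their lowest array was cholesterol-diet replicate 3, also the lowest for Ebp, and their highest was cholesterol-diet replicate 2. The precursor marker Olig2 (1 of 6) was 13.23 to 14.25 on the cholesterol diet, 12.80 to 13.31 on the standard label and 12.88 to 13.11 in wild type, highest on replicates 1 and 3. The neuronal marker Camk2a (1 of 12) was 8.81 to 9.23 on the cholesterol diet, 8.04 to 9.04 on the standard label and 8.20 to 8.21 in wild type, and was also highest on cholesterol-diet replicates 1 (9.23) and 3 (9.14).

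Vascular and ventricular markers completed the lists. The endothelial mean (4 of 10) was 9.09 to 9.21 on the cholesterol diet, 9.25 to 9.75 on the standard label and 8.67 to 8.81 in wild type, and that of vessel wall cells (4 of 9) 10.48 to 10.77, 10.73 to 11.12 and 10.06 to 10.14. Choroid plexus and ependymal markers (4 of 8) had means of 11.43 to 12.78, 12.38 to 12.90 and 12.14 to 12.21. All marker genes named here came from the same selected table, and the part of cell composition in the sterol gene values was not tested.

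**Figure D3:**
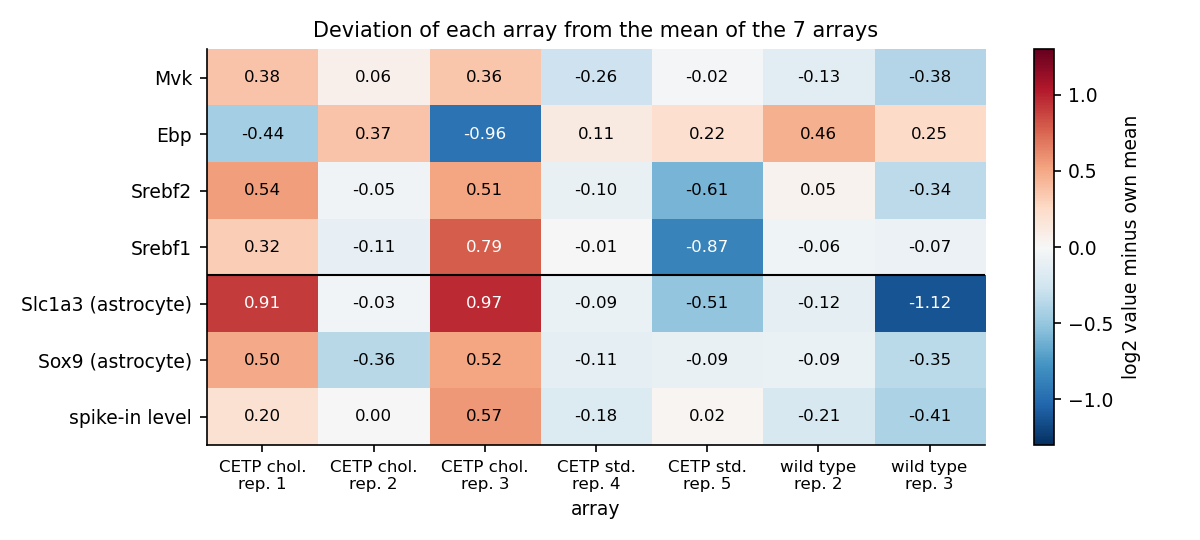
Deviation of each array (columns) from the mean of the 7 arrays, in log2 units given in each cell, for the 4 sterol genes, 2 astrocyte markers and the mean of the spike-in controls (rows). Cholesterol-diet replicates 1 and 3 are red in every row but Ebp, where they reach -0.44 and -0.96, and replicate 2 is near 0 for Mvk, Srebf2 and Slc1a3.

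Of 21 sterol synthesis genes listed, 4 were named here, Mvk and Ebp among them, and 0 passed the test between all CETP arrays and wild type. In that comparison 2 were higher and 2 lower, with a median log2 difference of 0.13 beside -0.05 for all features. Of 18 genes for the SREBP factors and their control 5 were named, Srebf2 and Srebf1 among them. Of the 5, 4 were higher, 1 was lower and 0 passed the test. Their median of 0.21 is the value of Srebf2 itself. Among all features 42.7% were higher. None of 14 genes of the isoprenoid branch, which starts from the mevalonate pathway, and none of 19 genes of fatty acid synthesis under SREBP-1 was named, so targets of SREBP-1 in that route could not be set beside it.

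Erlin1 and Mylip, of the list of SREBP factors and their control, had their highest means under the standard label. Srebf2 and Srebf1, of the same list, had their lowest means there. Erlin1, whose protein helps to hold SREBP precursors in the endoplasmic reticulum, measured 8.93, 8.74 and 8.69 on the cholesterol diet, 9.07 and 9.45 on the standard label, and 8.74 and 8.62 in wild type. Mylip, which encodes a ubiquitin ligase that sends lipoprotein receptors for degradation, measured 11.36, 11.31 and 11.69 on the cholesterol diet, 12.84 and 11.53 on the standard label, and 11.49 and 11.02 in wild type. For both genes the standard label held the top array, Mylip's being replicate 4 alone. Both were named from the table selected on the CETP diet groups, so nothing is read from this order. Between all CETP arrays and wild type the log2 difference was 0.29 ± 0.19 (SE) for Erlin1 (limma adjusted p = 0.701) and 0.49 ± 0.33 (SE) for Mylip (limma adjusted p = 0.707).

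Of 20 genes for sterol storage, export and oxysterols 2 were named. They too come from the table selected on the CETP diet groups, so nothing is read from their order between those groups. Apoe, the main lipoprotein carrier of the brain, measured 16.53, 16.85 and 16.39 on the cholesterol diet, 16.95 and 17.46 on the standard label, and 16.72 and 16.97 in wild type. Its lowest arrays were replicates 3 and 1 of the cholesterol diet, the order seen for Ebp. Nceh1, a hydrolase of cholesteryl esters, measured 7.67, 7.17 and 7.43 on the cholesterol diet, 7.12 and 6.35 on the standard label, and 7.25 and 6.90 in wild type, and did not exceed the negative control median on 6 of 7 arrays. Between all CETP arrays and wild type the log2 difference was -0.01 ± 0.22 (SE) for Apoe (limma adjusted p = 0.997) and 0.07 ± 0.25 (SE) for Nceh1 (limma adjusted p = 0.959).

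**Figure D4:**
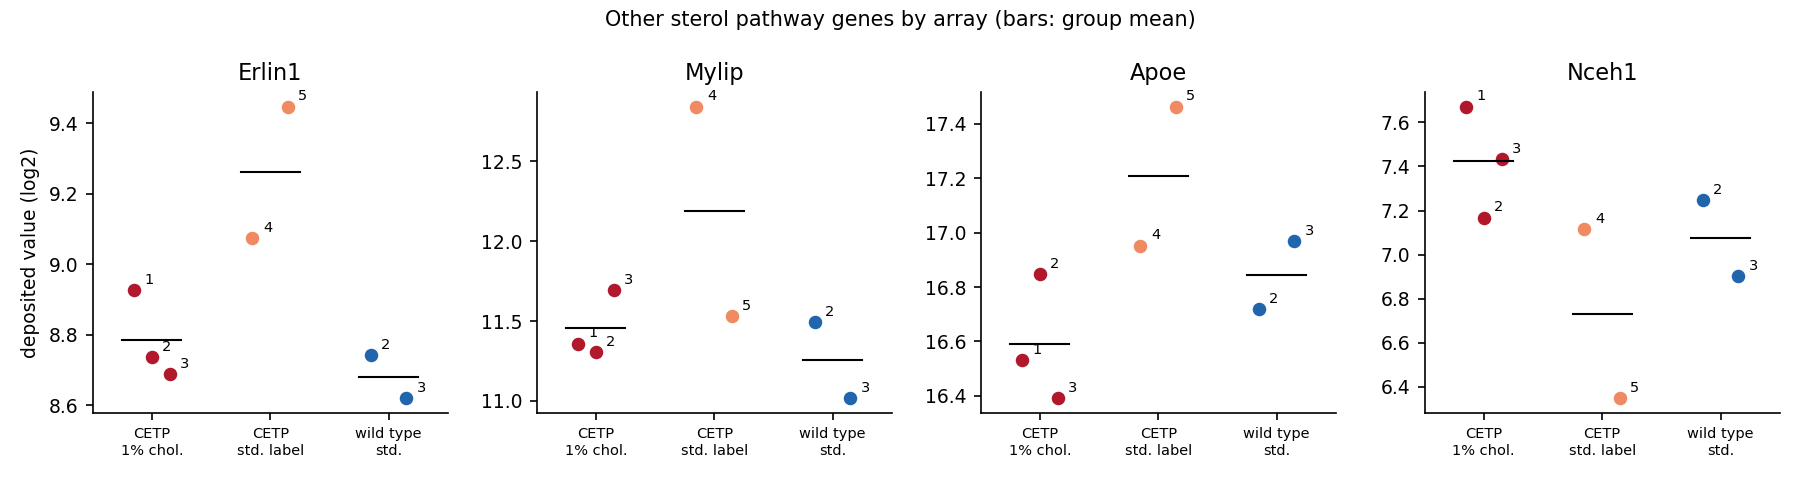
Deposited log2 values (y axis, a separate range for each gene) of Erlin1, Mylip, Apoe and Nceh1 by group (x axis), with replicate numbers and a bar for each group mean. Erlin1 is highest on both standard-label arrays (9.07 and 9.45), and Apoe is lowest on cholesterol-diet replicates 3 and 1. All genes shown were named from the table selected on the CETP diet groups.

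The likeness of 2 profiles was measured as the root mean square difference of their log2 values over the 7 arrays, each gene first centred on its own mean. Srebf2 and Srebf1 were 0.20 apart, nearer to each other than any other pair of the 4, and Mvk was 0.26 from Srebf2 and 0.40 from Srebf1. Both Srebf2 and Srebf1 had other genes nearer to them, as given below. Ebp was 0.70 or more from each of the others, beside spreads around the own mean of 0.27 for Mvk, 0.48 for Ebp, 0.39 for Srebf2 and 0.46 for Srebf1. Among all named genes the nearest to Srebf2 were Ube2s (0.08), Npepl1 (0.10) and Trim29 (0.11), the first 3 of 22194 features. The nearest to Srebf1 were Cacnb1 (0.09), the gene the file names OR6F1 (0.10) and Fmn2 (0.10), also ranks 1 to 3. Those nearest to Mvk were Spred2 (0.06), Lce1j (0.09) and Tmem121b (0.10), at ranks 1, 15 and 26, and those nearest to Ebp were the gene the file names C18orf32 (0.09), Uchl5 (0.11) and Lsg1 (0.12), at ranks 2, 6 and 8. The named genes come from the table selected on the CETP diet groups, as the 4 genes do, so nothing is read from these ranks. With 7 arrays such closeness is a description of these profiles.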

How the data were processed

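RNA from magnetically enriched astrocytes (flow cytometry purity above 70% for GFAP, 10 ng RNA per array, per the labels' protocols) was measured on 7 single-colour Affymetrix arrays. The values are log2 expression levels deposited by the authors, with no summarization or normalization method given in the sources used here. The scale was taken as log2 from the values, 2.74 to 19.60. The fold column of the authors' deposited table served only to find which groups it compares, from agreement with group averages (plain means were tried first, then Tukey's biweight), and its ID and symbol columns named 1603 of 22206 probe sets, matched by symbol and chromosome to RefSeq (GRCm38.p6). Control entries were left out, and each named gene kept its brightest probe set, giving 22195 features. The remaining probe sets are unnamed here.

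A limma model (3.58.1, R 4.3.3) with a mean for each of the 3 groups was fitted over the 7 arrays (residual degrees of freedom 4, prior 5.39), with two-sided p-values and Benjamini-Hochberg adjustment over all features at 0.05. The tested contrast weighted the 5 CETP arrays equally against wild type. The number of arrays limits the precision. On simulated data with 200 changed features this test found 0% of those changed 2-fold and 86.5% of those changed 4-fold. Genes named are the 4, the members of 5 pathway lists and the 3 named genes nearest in profile to each. Another 3 named genes of the lists are counted but not reported here. The members and lists were chosen with earlier results of these data known. Alternatives left out each array or changed the scaling, the filter on dim features, probe set averaging, array weights, the variance prior, the CETP weights and grouping, a spike-in covariate or a replicate block. Replicate numbers 2 and 3 occur in both the cholesterol-diet and wild-type groups, but the labels give separate animals and the deviations of same-numbered arrays correlated at 0.008 and 0.037, so they were not taken as pairs. Promoter and microRNA sequences came from RefSeq (GRCm38.p6), where all 4 genes matched. Tables and plots were made with matplotlib 3.10.9, pandas 2.3.3 and numpy 2.4.6 in Python 3.11.15.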

Additional observations from a re-analysis of the deposited data

How the results depend on the processing

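Between all CETP arrays and wild type none of the 4 genes passed the limma test under any alternative run, and 0 features passed, also at an adjusted p of 0.10. Mvk kept its direction throughout (0.10 to 0.48). The spike-in covariate turned Ebp (0.22), Srebf2 (-0.068) and Srebf1 (-0.27); the cause was not tested. Leaving out 1 array gave 0.24 to 0.48 for Mvk, -0.62 to -0.29 for Ebp, 0.009 to 0.40 for Srebf2 and -0.10 to 0.31 for Srebf1, the last turned only without CETP cholesterol-diet replicate 3. The replicate block gave 0.36 for Mvk, -0.49 for Ebp, 0.20 for Srebf2 and 0.09 for Srebf1 and changed no call. Without CETP standard-label replicate 5, which leaves 1 array in that group, assumed to vary like the others, 9 features passed between the standard label and wild type and 14 between the CETP diet groups, against 0 with all arrays; without any other array 0 passed in either. Over the 4 comparisons the covariate turned 8 of 16 directions of the 4 genes, and quantile normalization, median subtraction, the dim filter, array weights and the variance prior turned 0 of 16 each. Mvk lay near background, which limits its differences.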
